A study of Mus musculus with 9 samples.

Results

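The S-phase and DNA replication genes described here are 48 genes out of the 22322 in the expression table. They were taken by symbol from a fixed list of genes for replication licensing, fork proteins, nucleotide supply and the E2F programme. The rule itself uses no measured value, but the list was chosen with earlier results of these data known. All 48 had enough reads to be tested, with estimated counts between 245 and 10826 in any library. RNA-seq was done on 9 libraries of cultured mouse retinal ganglion cells (RGCs), labelled wild type, in 3 groups of 3. Normal RGCs had plain culture medium, aging RGCs were given D-galactose to model aging, and the cells called aging RGCs + USCs medium were given D-galactose and then received medium conditioned by urine-derived stem cells (USCs) from which those cells had been removed. The label of the last group gives the conditioned medium alone, so no purified exosomes enter the comparisons. The cells of all groups were bought as RGCs, grown in serum and passaged by trypsin, and the replicates of a group were wells, so the p-values measure the spread between these wells, which may be technical. The labels name no group given unconditioned medium in its place, so what the USCs released and the change of medium itself cannot be told apart.

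Before a cell divides, it copies its DNA once in S phase. In G1 the origin recognition complex, Cdc6 and Cdt1 load rings of Mcm2 to Mcm7 onto origins, and at the start of S phase Cdc45 and the GINS proteins turn these rings into running helicases, behind which primase and the DNA polymerases copy both strands. Cyclin E and the E2F factors switch these genes on at the G1/S border. Mature retinal ganglion cells are postmitotic neurons that do not normally run this programme.

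Library totals lay between 18189616 and 22342288 estimated counts. The labelled cell type was compared with its markers. Of 18 RGC marker genes, 5 were at 0 in all libraries (Pou4f2, Pou4f3, Stmn2, Atoh7 and Ebf3), and 12 stayed under 1 CPM, a count scaled to a common library size, in every library. Thy1, the surface protein used to purify RGCs, did not exceed 0.0493 CPM, whereas Rbpms, an RNA-binding protein of RGCs, lay between 45.5 and 61.6 CPM. Of the same markers, Nefl lay between 16.1 and 67.5, Isl1 between 11.1 and 21.6 and Tubb3 between 2.28 and 22.2 CPM. Pou4f1 and Nefm reached at most 1.37 and 1.04 CPM. The mesenchymal and epithelial genes Vim, Fn1, Krt8, Krt18 and Krt19 were at 243 CPM or above in every library, but 6 of the 10 epithelial and 3 of the 10 mesenchymal markers, among them Cdh1 and Col1a2, stayed under 1 CPM in all. The name RGCs is kept here as the label of cultures in which most of the defining RGC genes were absent or near 0.

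The replication genes were higher in aging RGCs than in normal RGCs, and this held for nearly the whole list. Summed over the 48 genes, the level was 4249, 4079 and 4266 CPM in the normal libraries, 5675, 5607 and 5630 CPM in the aging libraries, and 6232, 6204 and 6010 CPM in the medium-treated libraries. The 3 groups did not overlap in this sum, and the medium-treated libraries were the highest. The step from normal to aging was the larger of the steps, with group means of 4198 ± 103 (SD, n = 3), 5637 ± 34.6 and 6149 ± 121 CPM. Taken as a plain share of the library, without any scaling factor, the sum was 0.42% to 0.439%, 0.567% to 0.577% and 0.58% to 0.596%. In bulk RNA the number of cells in S phase and the amount of these RNAs per cell cannot be told apart.

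**Figure D1:**
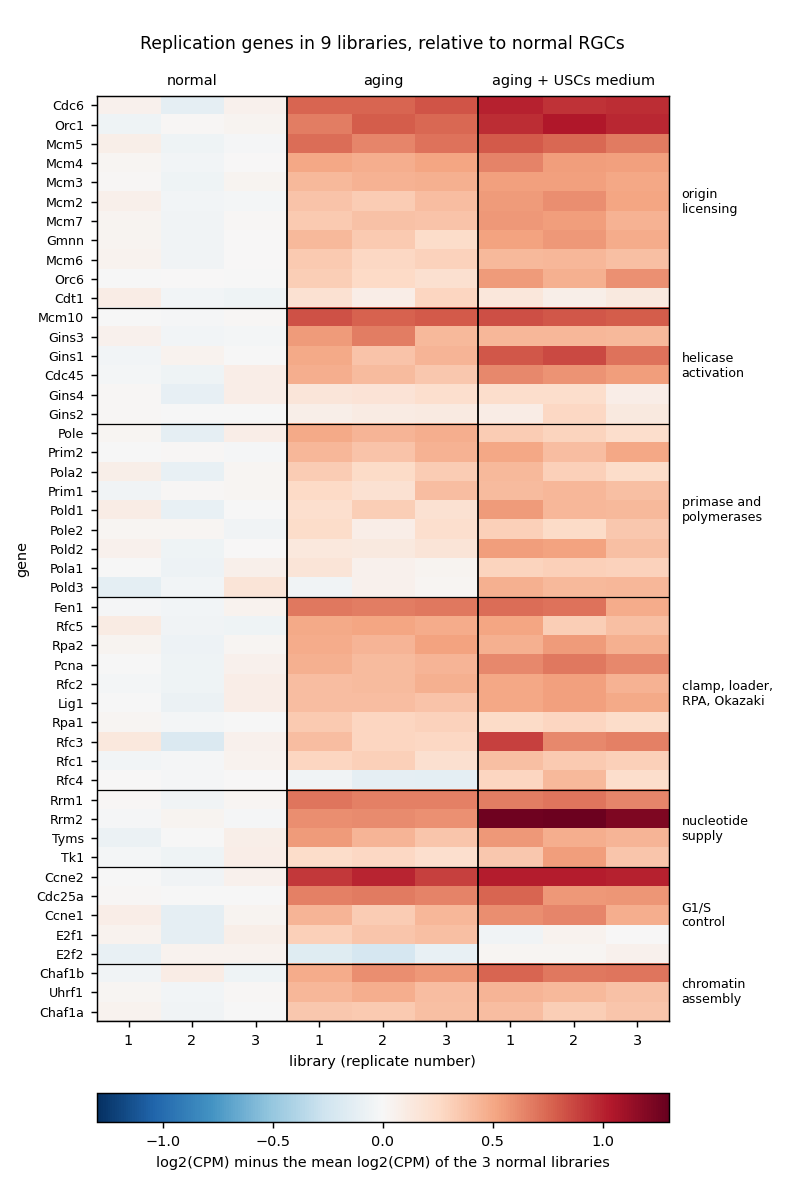
Each row is a replication gene and each column a library, grouped by normal RGCs, then aging RGCs, then the medium-treated cells. The colour gives log2 CPM minus the mean log2 CPM of the 3 normal libraries. Most rows turn red in the aging libraries and stay red or deepen with the medium, with E2f2 below normal in aging RGCs and E2f1 near the normal level in the medium.

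In aging against normal RGCs, 43 of the 48 genes were higher at an adjusted p under 0.05 and 1 was lower, where 23.6% of all 12145 genes tested were higher and 23% lower. The test was edgeR's quasi-likelihood F test with Benjamini-Hochberg adjustment over all genes tested, and these calls are the meaning of higher and lower throughout. The median log2 fold change of the genes was 0.39, equal to 1.31-fold, against 0.002 for all genes tested. Single changes were small. They ran from -0.16 to 0.93, 9 of the genes were higher by at least 1.5-fold, against 3.1% of all genes, and 0 reached 2-fold. In 43 genes every aging library lay above every normal library, where 27% of all genes did so. The genes outside these calls were Gins2, Pola1, Pold3 and Rfc4, and E2f2 was the lower one. Of the 43, 39 stayed higher under all 10 other settings of scaling, filter and test and with each of the 9 libraries left out, and the calls of Cdt1, Gins4, Pold2 and Pole2 were lost in some.

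Medium-treated cells were compared with aging RGCs next, and these comparisons share the aging libraries. With the conditioned medium, 22 of the 48 genes were higher than in aging RGCs, 2 were lower (E2f1 and Pole) and 24 did not pass the test, where 27.1% of all genes were higher and 26% lower. The median log2 fold change was 0.10, against -0.01 for all genes. A single gene, Rrm2, was higher by at least 1.5-fold, against 3.47% of all genes. The medium-treated libraries lay wholly above the aging libraries in 26 genes, where 30.4% of all genes did so. How many genes were higher depended on the scaling. Without TMM factors, which correct the library totals for differences in composition, 13 genes were higher and 8 lower with a median of 0.02, and limma on log2(FPKM + 1) gave 10 higher and 4 lower. The median of all genes then moved as well. Scaling factors shift all genes nearly alike, so the replication genes stay 0.10 above that median whichever factors are used. This distance thus does not say whether the rise with the medium depends on the scaling. Mcm2, Orc1, Orc6, Gins1, Pold2, Pold3, Pcna, Rfc3, Rfc4 and Rrm2 were higher and E2f1 was lower under all of these settings and with each library left out. The calls of the other 12 higher genes, Mcm6, Mcm7, Cdc6, Gmnn, Cdc45, Pola1, Pold1, Lig1, Tk1, Ccne1, E2f2 and Chaf1b, were lost in some.

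Against normal RGCs, the medium-treated cells had 45 of the genes higher and 0 lower, where 30.6% of all genes were higher and 29.9% lower. The median log2 fold change was 0.49, equal to 1.41-fold. At least 1.5-fold was reached by 14 genes, against 4.57% of all genes, and 2-fold by Rrm2 and Ccne2. Every medium-treated library exceeded every normal library in 44 genes, where 31.9% of all genes showed this. Cdt1, E2f1 and E2f2 did not pass the test. Higher calls at both steps, normal to aging and aging to medium, were made for 18 genes. The share of all genes called at both steps was not computed. The steps share the aging libraries, and part of the second calls depended on the settings, as given above.

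**Figure D2:**
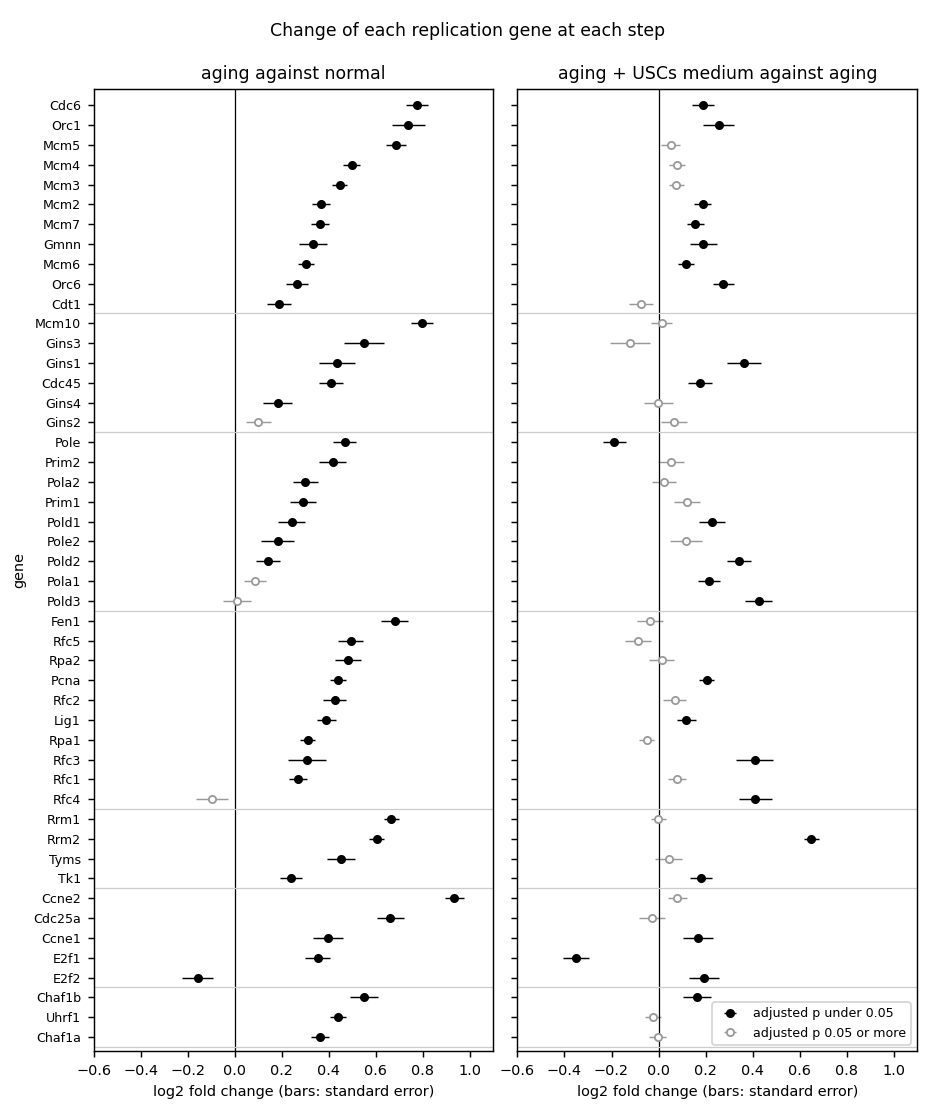
The log2 fold change of each replication gene is shown with its standard error, aging against normal RGCs on the left and the medium-treated against aging RGCs on the right, with filled points at an adjusted p under 0.05. On the left nearly all points lie right of 0, up to 0.93 for Ccne2. On the right they gather near 0, with Rrm2 at 0.65 and E2f1 at -0.35.

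The 11 licensing genes of the list were all higher in aging RGCs, where 23.6% of all genes were, with log2 fold changes between 0.19 and 0.77. Cdc6, the ATPase that helps to load the Mcm rings, had levels of 55.8, 49.6 and 55.6 CPM in normal RGCs, 90.7, 90.5 and 94.3 CPM in aging RGCs, and 107, 103 and 105 CPM with the medium. The 3 groups did not overlap, and the order was normal, aging, medium. Cdc6 changed by 0.77 ± 0.05 in log2 fold (standard error, adjusted p = 1.65e-13) in aging RGCs and a further 0.19 ± 0.05 (adjusted p = 0.00088) with the medium. Orc1, the origin recognition subunit that recruits Cdc6, ran from 16.8, 17.7 and 17.96 CPM through 27.7, 30.2 and 29.4 CPM to 34.0, 35.9 and 34.4 CPM. This gene too rose at both steps, by 0.74 ± 0.07 (adjusted p = 9.34e-10) and 0.26 ± 0.07 (adjusted p = 0.00146). Orc6 was the licensing gene with the most even steps, 0.26 (adjusted p = 3.77e-05) and 0.28 (adjusted p = 1.12e-05). Cdt1, the loading factor, had the smallest change of this group in aging RGCs, 0.19 (adjusted p = 0.00383), and its values with the medium, 80.3, 76.5 and 79.0 CPM, overlapped those of the aging libraries, 83.4, 76.7 and 88.0 CPM. Gmnn, which encodes geminin, the inhibitor of Cdt1, was higher at both steps by 0.33 (adjusted p = 3.67e-05) and 0.19 (adjusted p = 0.00694). Other origin recognition subunits, outside the list and named after their values were seen, differed. Orc2, Orc3 and Orc4 did not pass in aging RGCs (0.07, 0.02 and -0.11, adjusted p = 0.259, 0.804 and 0.0681). They were higher with the medium, by 0.48, 0.43 and 0.36. Orc5 was higher in aging RGCs (0.36, adjusted p = 8.17e-05) and not with the medium (0.04, adjusted p = 0.675).

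Among the 6 subunits of the Mcm2 to Mcm7 ring, Mcm5 changed most. Its levels were 108, 98.5 and 101 CPM in normal RGCs, 169, 159.6 and 167 CPM in aging RGCs, and 178, 172 and 164 CPM with the medium. The aging and medium-treated values overlapped, and both lay above all normal values. The log2 fold change of Mcm5 was 0.69 ± 0.04 (adjusted p = 1.15e-13) in aging RGCs and 0.05 ± 0.04 (adjusted p = 0.286) with the medium. The other subunits were higher in aging RGCs by 0.30 (Mcm6) to 0.50 (Mcm4). With the medium Mcm2, Mcm6 and Mcm7 were higher again, by 0.19 (adjusted p = 0.000107), 0.11 (adjusted p = 0.00565) and 0.16 (adjusted p = 0.000643), while Mcm3 and Mcm4 missed the threshold at adjusted p of 0.0563 and 0.0624. Levels between genes were compared only per length, as FPKM. On that scale the subunits of the ring, which is built from equal numbers of each, spanned 38.2 (Mcm5) to 91.2 FPKM (Mcm7) in normal RGCs, a 2.38-fold range, and 56.1 (Mcm2) to 117 FPKM (Mcm7) in aging RGCs, a 2.08-fold range. Mcm5 was the lowest of the subunits in normal RGCs, at 38.2 ± 1.97 FPKM against 44.2 ± 1.89 FPKM for Mcm2, and in aging RGCs their order was the other way round, at 60.5 ± 1.76 against 56.1 ± 1.27 FPKM. With the medium Mcm5 was again the lower, at 59.6 ± 2.57 against 60.6 ± 1.7 FPKM, a difference within the SDs.

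Promoters are shown because many replication genes are textbook E2F targets. In RefSeq sequences of build GRCm38.p6, running from 250 bases before to 50 bases after the start of transcription, 39 of the 48 genes were found, without Mcm4, Gmnn, Gins1, Gins2, Gins4, Prim2, Pole, Rfc2 and Ccne2. On either strand, the E2F letters TTTGGCGC, TTTCCCGC, TTTCGCGC or TTTGCCGC occurred in 17 of these 39 (43.6%), against 4.6% of the 9601 other genes tested that have a promoter in the table and 2.6% of all 27025 genes in it. The letters CCAAT occurred in 24 (61.5%), against 43.5% and 41.1%, and the letters TTTGAA, a cell cycle element of G2/M genes, in 6 (15.4%), against 14.6% and 20.2%. Matches can share bases, as do the 2 in Mcm5. Of the 9 genes higher by at least 1.5-fold in aging RGCs, Orc1, Cdc6, Mcm5 and Cdc25a hold E2F letters. The 160 bases just upstream of the RefSeq start are given for these 4 and, for comparison, for Rrm2, which holds none of the E2F letters searched. For Cdc6 the GENCODE annotation starts the gene at base 98907801, upstream of the stretch printed. That stretch, with its E2F letters, thus lies inside the gene as annotated there. Capitals mark the E2F letters in the first 4 and CCAAT in Rrm2, and each line reads 5′ to 3′ along the gene:
Orc1 (chr4:108579294-108579453, + strand): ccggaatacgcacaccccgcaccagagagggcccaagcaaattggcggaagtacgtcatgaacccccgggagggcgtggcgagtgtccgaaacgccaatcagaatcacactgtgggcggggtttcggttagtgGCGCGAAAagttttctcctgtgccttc
Cdc6 (chr11:98907991-98908150, + strand): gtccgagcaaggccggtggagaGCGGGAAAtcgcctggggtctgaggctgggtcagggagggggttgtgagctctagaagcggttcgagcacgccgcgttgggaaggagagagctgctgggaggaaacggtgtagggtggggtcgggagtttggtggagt
Mcm5 (chr8:75109349-75109508, + strand): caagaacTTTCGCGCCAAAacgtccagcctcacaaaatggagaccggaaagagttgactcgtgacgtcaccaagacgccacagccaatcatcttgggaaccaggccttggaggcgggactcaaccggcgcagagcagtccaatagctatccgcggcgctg
Cdc25a (chr9:109875419-109875578, + strand): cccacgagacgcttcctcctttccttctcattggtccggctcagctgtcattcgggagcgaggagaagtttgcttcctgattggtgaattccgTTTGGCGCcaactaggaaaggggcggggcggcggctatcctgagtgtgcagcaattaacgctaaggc
Rrm2 (chr12:24708094-24708253, + strand): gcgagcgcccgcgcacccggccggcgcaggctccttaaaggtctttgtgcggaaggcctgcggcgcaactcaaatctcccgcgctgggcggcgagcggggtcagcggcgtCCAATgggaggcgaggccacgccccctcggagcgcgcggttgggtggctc

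The size of the change was much the same with and without the E2F letters, as a description with no test. The median log2 fold change in aging RGCs was 0.36 over the 17 genes with these letters and 0.38 over the 22 without them, and with the medium 0.12 and 0.10. E2f2, the one lower gene, and Orc1 and Cdc6, which rose at both steps, all hold them. A match of letters is a description of the sequence and not a measured binding site.

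Of the 6 genes for helicase activation, 5 were higher in aging RGCs, where 23.6% of all genes were, and 2 were higher with the medium. The second count is near the share of all genes, 27.1%, and became 1 higher and 1 lower without TMM factors. Mcm10, which helps to start the helicase, stood at 42.1, 42.0 and 42.9 CPM in normal RGCs, 74.95, 72.2 and 73.5 CPM in aging RGCs, and 75.6, 74.0 and 73.0 CPM with the medium. All aging and medium-treated values lay above the normal ones and overlapped each other. The first step was 0.80 ± 0.05 (adjusted p = 6.48e-14), and the second, 0.01 ± 0.05, did not pass the test (adjusted p = 0.829). Cdc45 was higher at both steps, by 0.41 (adjusted p = 1.61e-07) and 0.18 (adjusted p = 0.00368). The GINS complex holds one copy of each of its subunits, yet their genes moved unequally. Gins1 rose from 14.9, 15.8 and 15.2 CPM to 21.5, 19.8 and 20.8 CPM and then to 26.9, 27.8 and 25.04 CPM, with log2 fold changes of 0.43 (adjusted p = 3.82e-05) and 0.36 (adjusted p = 0.00014). Gins3 rose by 0.55 (adjusted p = 6.96e-06) and was at -0.12 (adjusted p = 0.228) with the medium. Gins4 was higher by 0.18 (adjusted p = 0.0166) in aging RGCs, a call lost without aging replicate 3 or normal replicate 2. Gins2 passed neither test, at 0.10 (adjusted p = 0.134) and 0.07 (adjusted p = 0.32), but it shares 2758 exonic bases with Gse1 on the other strand. No statement on strand in the counting was given in the sources used here, so reads of the pair cannot be told apart. The same holds in smaller stretches for Orc1, Orc6, Mcm7, Cdc45, Pole, Rfc2, Rfc5, Lig1 and Tk1, which also overlap exons of a gene on the other strand. In normal RGCs the levels per length ran from 5.12 ± 0.0907 FPKM for Gins3 to 27.1 ± 1.83 FPKM for Gins4.

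**Figure D3:**
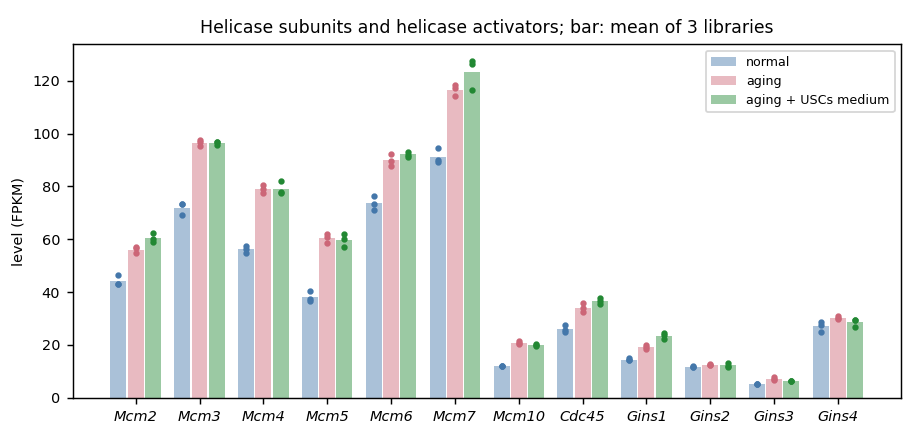
Bars give the mean FPKM over 3 libraries of each group, and points the single libraries, for the Mcm2 to Mcm7 subunits and the genes for helicase activation. Mcm7 has the highest level per length and Gins3 the lowest in each group. Aging bars exceed normal bars for each gene shown, with the smallest step in Gins2, and medium-treated bars lie near the aging bars apart from Gins1.

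The 9 primase and polymerase genes had the smallest median change of the gene groups in aging RGCs, 0.24, with 7 higher and 0 lower. At that step 23.6% of all genes were higher and 23% lower. Pole, the catalytic subunit of the leading strand polymerase epsilon, had 76.1, 68.9 and 79.4 CPM in normal RGCs, 105, 101 and 103 CPM in aging RGCs, and 93.7, 91.4 and 87.4 CPM with the medium. It rose by 0.47 ± 0.05 (adjusted p = 4.45e-09) and then fell by 0.19 on the log2 scale (standard error 0.05, adjusted p = 0.00141), to values between those of the other groups. The second call was lost on FPKM, where limma gave an adjusted p of 0.207. Its partner Pole2 was higher in aging RGCs by 0.18 (adjusted p = 0.0317) and did not pass with the medium (0.12, adjusted p = 0.145), and Pole2 shares 245 exonic bases with Gm49384 on the same strand. The subunits of the lagging strand polymerase delta did not share a pattern. Pold3 had 45.7, 48.5 and 55.9 CPM in normal RGCs, 48.3, 51.7 and 50.6 CPM in aging RGCs, and 68.4, 66.8 and 67.0 CPM with the medium. Its normal and aging values overlapped (0.01, adjusted p = 0.924), and the medium-treated values lay above both (0.43 ± 0.06, adjusted p = 6.02e-07). Pold2 rose by 0.14 (adjusted p = 0.0257), then by 0.34 (adjusted p = 1.57e-06), and the catalytic subunit Pold1 by 0.24 (adjusted p = 0.000972) and 0.23 (adjusted p = 0.00111). Pold4, a further subunit outside the list, is named after its values were seen. It was lower in aging RGCs, at -0.22 (adjusted p = 0.0134), and did not pass with the medium (0.09, adjusted p = 0.302).

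Polymerase alpha and primase together lay down the primers of each new strand. Pola1, the catalytic subunit, had 79.1, 75.8 and 83.3 CPM in normal RGCs and 89.3, 82.3 and 81.5 CPM in aging RGCs, which overlapped (0.09, adjusted p = 0.126), and 96.9, 98.6 and 97.97 CPM with the medium (0.21 ± 0.05, adjusted p = 0.000275). Pola2, Prim1 and Prim2 were higher in aging RGCs by 0.30, 0.29 and 0.42 and did not pass the test with the medium, with differences of 0.02 to 0.12. The catalytic subunits of the polymerases were close to each other per length in normal RGCs, at 15.3 ± 0.68 FPKM for Pola1, 10.8 ± 0.775 FPKM for Pole and 13.9 ± 0.99 FPKM for Pold1.

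Among the 10 genes for the clamp, its loader, single-strand binding and Okazaki fragment maturation, 9 were higher in aging RGCs, where 23.6% of all genes were. With the medium 4 were higher, where 27.1% of all genes were. The latter count became 3 higher and 2 lower without TMM factors. Pcna, the sliding clamp that holds polymerases on DNA, had 296, 286 and 307 CPM in normal RGCs, 409, 395 and 402 CPM in aging RGCs, and 457, 477 and 456 CPM with the medium. The groups did not overlap at either step, and the log2 fold changes were 0.44 ± 0.03 (adjusted p = 1.29e-11) and 0.20 ± 0.03 (adjusted p = 6.97e-06). The loader is made of Rfc1 to Rfc5, and its genes split. Rfc1, Rfc2 and Rfc5 were higher in aging RGCs by 0.27, 0.42 and 0.49 and did not pass the test with the medium, with differences of 0.08, 0.07 and -0.09. Rfc3 was higher at both steps, by 0.31 (adjusted p = 0.00245) and 0.41 (adjusted p = 5.94e-05). Rfc4 had 25.4, 25.1 and 25.4 CPM in normal RGCs, 24.5, 23.3 and 23.1 CPM in aging RGCs, and 30.8, 33.9 and 29.7 CPM with the medium. All aging values of Rfc4 lay below the normal ones, a difference of -0.10 that did not pass the test (adjusted p = 0.268), and the medium-treated values lay above both other groups, by 0.41 ± 0.07 over aging RGCs (adjusted p = 1.04e-05). Rfc4 shares 194 exonic bases with Eif4a2, which lies on the other strand and had a mean of 4473 counts. In aging RGCs the loader genes ran per length from 14.3 ± 0.335 FPKM for Rfc2 to 38.9 ± 0.441 FPKM for Rfc1.

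Rpa1 and Rpa2 encode subunits of the complex that coats single-stranded DNA. They were higher in aging RGCs by 0.31 (adjusted p = 7.39e-09) and 0.48 (adjusted p = 3.39e-08), and with the medium their differences were -0.05 and 0.01, neither past the threshold. Fen1, the nuclease that trims Okazaki fragments, rose from 40.7, 40.1 and 42.4 CPM to 65.9, 65.3 and 66.2 CPM and stood at 67.9, 66.9 and 57.4 CPM with the medium. Its first step was 0.68 ± 0.06 (adjusted p = 1.1e-10), and the medium-treated values lay on both sides of the aging ones (-0.04, adjusted p = 0.585). Fen1 shares 1909 exonic bases with the antisense gene Gm10143. Lig1, the ligase that joins these fragments, was higher by 0.39 (adjusted p = 7.72e-09) and 0.12 (adjusted p = 0.014).

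The 4 nucleotide supply genes were all higher in aging RGCs, where 23.6% of all genes were. Here the subunits of ribonucleotide reductase, which makes deoxynucleotides, differed most with the medium. Rrm2, the small subunit that limits its activity in S phase, had 219.6, 226 and 218 CPM in normal RGCs, 337, 339 and 334 CPM in aging RGCs, and 532, 537 and 515 CPM with the medium. Each step left a wide gap between groups. Rrm2 rose by 0.60 ± 0.03 (adjusted p = 5.37e-15) and again by 0.65 ± 0.03 (adjusted p = 4.37e-16), in all 2.39-fold from normal to medium-treated cells. Rrm1, the large subunit, had 251, 241 and 254 CPM in normal RGCs, 401, 392 and 390.4 CPM in aging RGCs, and 394, 403 and 386 CPM with the medium. It rose by 0.67 ± 0.03 (adjusted p = 7.86e-16), and its aging and medium-treated values overlapped (-0.001 ± 0.03, adjusted p = 0.981). Per length, Rrm2 was above Rrm1 in each group, at 105 ± 1.65 against 64.6 ± 1.17 FPKM in normal RGCs, 156 ± 1.65 against 102 ± 1.46 FPKM in aging RGCs, and 233 ± 4.5 against 95.6 ± 3.03 FPKM with the medium. Tyms and Tk1, which make and salvage thymidine nucleotides, were higher in aging RGCs by 0.45 (adjusted p = 3.08e-07) and 0.24 (adjusted p = 0.000141). With the medium Tk1 was higher by a further 0.18 (adjusted p = 0.00193), and Tyms was not called (0.04, adjusted p = 0.549).

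The 5 G1/S control genes held both the largest rise of the list and its only lower gene in aging RGCs. Ccne2, one of the cyclins E, had 70.6, 68.5 and 73.9 CPM in normal RGCs, 134, 141 and 132 CPM in aging RGCs, and 144, 144 and 142 CPM with the medium. It rose by 0.93 ± 0.04 (adjusted p = 9.2e-17), the largest change of the 48 genes in aging RGCs, and the difference with the medium, 0.08 ± 0.04, did not pass the test (adjusted p = 0.0911), although all medium-treated values exceeded the aging ones. Ccne2 shares 609 exonic bases with Ints8 on the other strand. Ccne1, the other cyclin E, was higher at both steps by 0.40 (adjusted p = 1.05e-05) and 0.17 (adjusted p = 0.0254). Cdc25a, the phosphatase that activates Cdk2, rose from 34.1, 33.7 and 33.7 CPM to 53.3, 54.1 and 53.1 CPM and stood at 57.1, 49.97 and 50.5 CPM with the medium. The rise was 0.66 ± 0.06 (adjusted p = 2.01e-10), and medium-treated values lay on both sides of the aging ones (-0.03, adjusted p = 0.715).

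E2f1 and E2f2 are activators of the E2F family. E2f1 had 51.0, 45.6 and 52.3 CPM in normal RGCs, 61.5, 63.5 and 65.1 CPM in aging RGCs, and 48.03, 51.1 and 49.9 CPM with the medium. Aging values lay above all others, and the normal and medium-treated values overlapped. E2f1 changed by 0.35 ± 0.05 (adjusted p = 4.27e-06) in aging RGCs, -0.35 ± 0.05 (adjusted p = 3.65e-06) with the medium, and 0.001 ± 0.05 (adjusted p = 0.991) between medium-treated and normal cells. E2f2 had 30.5, 33.8 and 33.8 CPM in normal RGCs, 29.3, 28.1 and 30.5 CPM in aging RGCs, and 33.3, 33.2 and 33.9 CPM with the medium. The aging values of E2f2 were the low ones, but barely, at 30.53 CPM in aging replicate 3 against 30.54 CPM in normal replicate 1. The normal and medium-treated values of E2f2 overlapped. This gene was lower in aging RGCs by -0.16 ± 0.06 (adjusted p = 0.044), close to the threshold and lost in DESeq2 (adjusted p = 0.0725). With the medium it was higher by 0.19 ± 0.06 (adjusted p = 0.0127). E2f3, the remaining activator and no member of the list, went in the directions of E2f1, by 0.24 (adjusted p = 0.000187) and -0.21 (adjusted p = 0.000718), and is named after its values were seen.

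**Figure D4:**
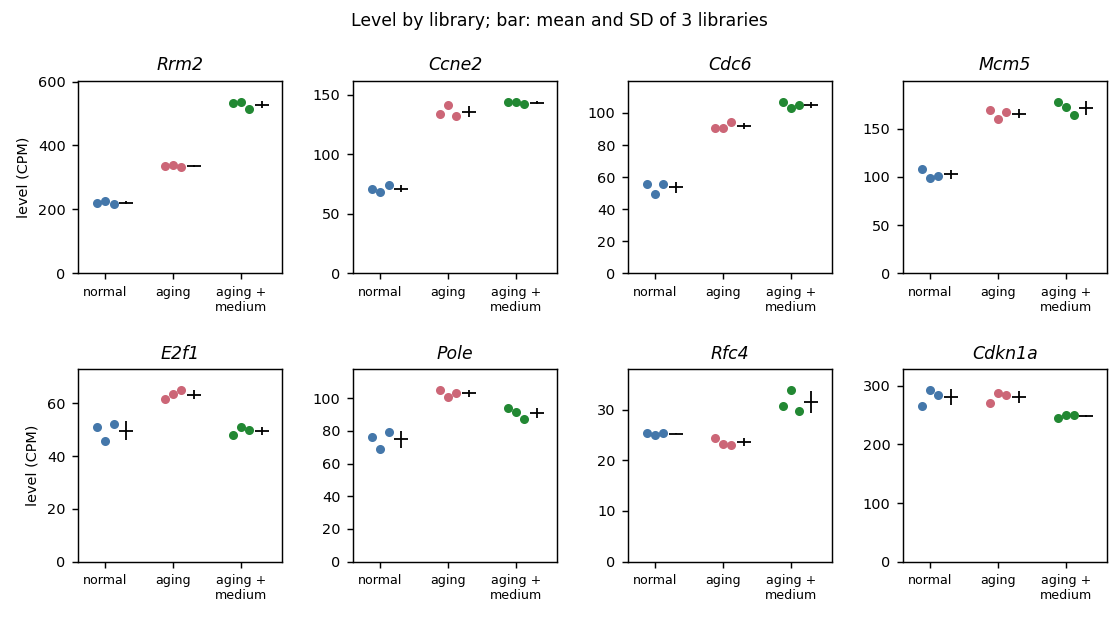
Levels in CPM are shown for each library of the 3 groups, with the mean and SD of 3 libraries beside them. Rrm2 and Cdc6 rise at both steps, Ccne2 and Mcm5 mostly at the first, Rfc4 at the second, and E2f1 and Pole are highest in aging RGCs. Cdkn1a, a cell cycle inhibitor outside the list, is lower with the medium.

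The 3 genes for chromatin assembly and DNA methylation upkeep were higher in aging RGCs, where 23.6% of all genes were. Chaf1b, a subunit of the histone chaperone CAF-1, had 26.8, 29.5 and 26.6 CPM in normal RGCs, 38.6, 41.9 and 40.9 CPM in aging RGCs, and 46.7, 44.4 and 44.8 CPM with the medium. It rose by 0.55 ± 0.06 (adjusted p = 2.44e-08) and 0.16 ± 0.06 (adjusted p = 0.0206), without overlap between groups. Chaf1a, the large subunit, rose by 0.36 (adjusted p = 7.7e-09) and was at -0.004 with the medium (adjusted p = 0.936). Chaf1a shares 4648 exonic bases with Ubxn6 on the other strand. Uhrf1, which guides the methylation of new DNA, rose by 0.44 ± 0.03 (adjusted p = 1.37e-11) and was at -0.02 with the medium (adjusted p = 0.573).

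Other genes of the same pathways were read from further lists. Of all genes tested, 23.6% were higher and 23% lower in aging RGCs, and 27.1% were higher and 26% lower with the medium. Of 30 other origin and fork genes, 21 were higher and 2 lower in aging RGCs, with a median of 0.23. With the medium 10 were higher, near the share of all genes, and 4 were lower. Clspn, the checkpoint adaptor at forks, Rnaseh2b, a subunit of the nuclease that removes ribonucleotides, Dna2, a nuclease for long flaps, and Dscc1, of an alternative clamp loader, were higher in aging RGCs by 0.70, 0.71, 0.67 and 0.59. Of 36 mitosis genes, 35 were higher in aging RGCs (median 0.35), and 18 were higher and 3 lower with the medium. Kif23, a motor of cytokinesis, had 73.7, 80.0 and 78.5 CPM in normal RGCs, 118, 116 and 116 CPM in aging RGCs, and 91.1, 96.6 and 95.7 CPM with the medium, so its second step was a fall of 0.30 (adjusted p = 7.27e-07). Of 12 other genes of replicated chromatin, 10 were higher in aging RGCs and 8 with the medium, with 0 and 1 lower. Replication checkpoint genes gave 6 higher and 1 lower of 11 at each step. The counts with the medium again shrank without TMM factors, to 6 higher and 7 lower for the origin and fork genes, 10 higher and 7 lower for the mitosis genes, 5 higher and 2 lower for the replicated chromatin genes, and 2 higher and 1 lower for the checkpoint genes.

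The lists around the G1/S switch and nucleotide supply were mixed. Of 27 other G1/S genes tested, 13 were higher and 5 lower in aging RGCs. With the medium 8 were higher and 8 lower, near the shares of all genes, 27.1% and 26%. These counts became 4 and 11 without TMM factors and 3 and 9 with limma on log2(FPKM + 1). Cdkn1a, the inhibitor p21, had 266, 293 and 285 CPM in normal RGCs, 269.7, 288 and 285 CPM in aging RGCs, and 246, 249.9 and 249.8 CPM with the medium. Its normal and aging values overlapped (-0.003 ± 0.04, adjusted p = 0.955), and it was lower with the medium by -0.18 ± 0.04 (adjusted p = 0.000223). Cdkn2a and Cdkn2b, which encode inhibitors of Cdk4 and Cdk6, had 0 counts in all libraries, so they could not be tested. Cdkn2d, a further inhibitor of that family, fell by 0.71 (adjusted p = 7.94e-08) in aging RGCs, and Cdkn1c fell by 0.74 (adjusted p = 8.78e-05) with the medium. Ccna2, the S-phase cyclin A, was higher in aging RGCs by 0.60 (adjusted p = 2.9e-14). Ccnd1, cyclin D1, was higher in aging RGCs by 0.36 (adjusted p = 9.43e-10) and lower with the medium by -0.27 (adjusted p = 1.31e-07), in the same directions as E2f1. Of 12 other nucleotide supply genes, 7 were higher and 2 lower in aging RGCs, and 7 were higher and 0 lower with the medium, or 4 and 0 without TMM factors. Shmt2, the mitochondrial enzyme that feeds one-carbon units, was one of the lower genes, with 313, 324 and 318 CPM in normal RGCs, 159, 169.6 and 166 CPM in aging RGCs, and 349, 342 and 344 CPM with the medium. Its aging values were the low ones, with log2 fold changes of -0.95 (adjusted p = 6.4e-19) and then 1.07 (adjusted p = 5.33e-20).

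**Figure D5:**
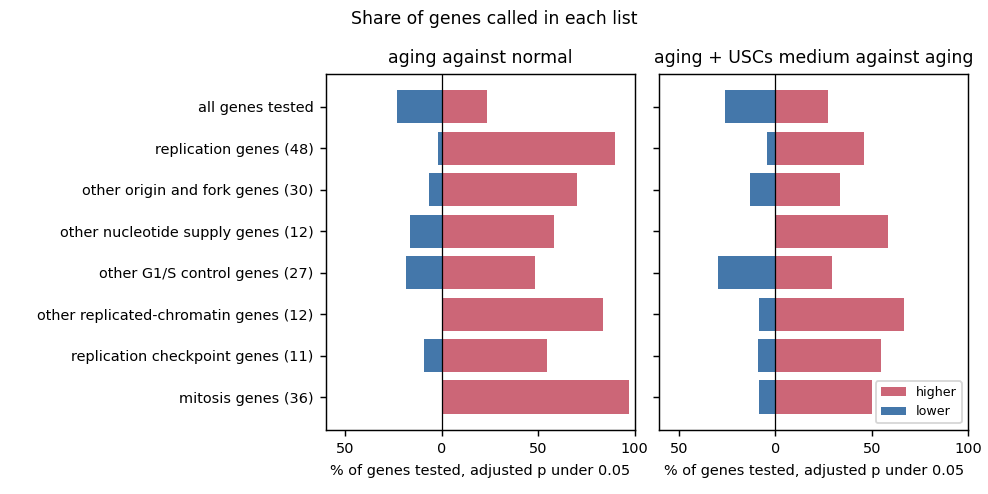
Bars give the share of genes tested that were higher (right) or lower (left) at an adjusted p under 0.05, for all genes tested, the 48 replication genes and 6 other lists, with the number tested in brackets. In aging RGCs the replication and mitosis genes stand far to the right of all genes, at 43 of 48 and 35 of 36. With the medium the share of the replication genes to the right is smaller, at 22 of 48, and the other G1/S genes stand at 8 higher and 8 lower, which became 4 and 11 without TMM factors.

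In the KEGG pathway DNA replication, as annotated in the deposited table, 25 of 37 genes belong to the 48 described. The 11 tested genes of the pathway outside them gave 5 higher and 1 lower in aging RGCs, where 23.6% of all genes were higher, and 3 higher and 0 lower with the medium, a share near the 27.1% of all genes. Their median log2 fold changes were 0.16 and 0.09. Genes of this pathway can also stand in the list of other origin and fork genes above, so these counts are not separate from it.

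Summed marker levels of cell types moved between the groups as well, but the sums rest largely on a few genes. The summed level of the 18 RGC markers was 143 to 155 CPM over the normal libraries, 103 to 106 CPM over the aging libraries and 96.7 to 104 CPM over the medium-treated libraries. The 10 mesenchymal markers summed to 3420 to 3520, 3330 to 3420 and 2800 to 2910 CPM, the 10 epithelial markers to 1050 to 1140, 1080 to 1100 and 1240 to 1280 CPM, and the 10 macrophage markers to 59.2 to 70.1, 44.7 to 51.3 and 30.9 to 54.7 CPM. The 8 glial markers summed to 103 to 112, 102 to 107 and 130 to 135 CPM, and the 11 photoreceptor markers to at most 3.13 CPM. Of the glial markers, 6 stayed under 1 CPM in all libraries, and Glul alone lay between 94.3 and 129 CPM. Cd68 made up much of the macrophage sum, at 28.6 to 43.2 CPM, and that sum overlapped between aging and medium-treated libraries. The part of these shifts in the levels of the replication genes was not tested.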

How the data were processed

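Total RNA of the 9 cultures was enriched for mRNA with oligo(dT) beads, per the labels. The authors deposited, per gene and library, an expected count (estimated reads, without normalization) and an FPKM value (scaled by length and library size). The labels name the build mm10. The aligner, the counting program and its use of strand were not given in the sources used here. Of the per-sample columns, 0 could not be assigned to a sample. Groups came from the labels.

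Rounded expected counts were fitted with edgeR 4.0.16 (R 4.3.3), using TMM factors (0.956 to 1.034) and filterByExpr, which kept 12145 of 22322 genes. All 9 libraries entered one fit with a mean for each group (6 residual degrees of freedom, common biological coefficient of variation 3.78%). Contrasts were tested with quasi-likelihood F tests, adjusted by Benjamini-Hochberg over the genes tested. CPM values use the TMM-scaled totals. The code was tested on simulated data before use. Libraries of a group differed by more than sampling noise, with a chi-square of 2.22 to 4.94 per gene. Deviations of same-numbered libraries correlated at -0.05 to 0.05, and those of differently numbered libraries at -0.09 to 0.09. No pairing by replicate number was detected, but whether same-numbered wells were handled together is not known. The alternatives tried were a likelihood ratio test in edgeR, DESeq2 1.42.0, leaving out the TMM factors or taking upper-quartile factors in their place, testing without the low-count filter or with 1 CPM in at least 3 libraries, fitting just the compared groups, blocking on the replicate number, limma 3.58.1 on log2(FPKM + 1) and on log2(FPKM + 0.1), thresholds on the fold change, and omitting single libraries.

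Overlapping genes came from GENCODE M21 on GRCm38, in which 16 of the 48 genes share exonic bases with another gene, and promoters from RefSeq on GRCm38.p6. The 48 genes were taken as given, and the members and all lists were chosen with earlier results of these data known. From the other lists, genes were named when called with at least a 1.5-fold change, at most 5 per list and comparison, with Cdkn1a and Ccnd1 in any case. E2f3, Pold4 and the origin recognition subunits Orc2, Orc3, Orc4 and Orc5 were named after their values were seen. One gene of the G1/S list is not analysed here.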

Additional observations from a re-analysis of the deposited data

How the results depend on the processing

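No call among the 48 genes turned direction under any setting, in any of the 3 comparisons. In aging against normal RGCs, DESeq2, no low-count filter, only the groups compared and limma on both FPKM scales left 0 genes lower in place of 1, and limma gave medians of 0.33 and 0.34. In medium-treated against aging RGCs, no TMM factors gave 13 higher, 8 lower and a median of 0.019, and limma gave 10 higher, 4 lower and medians of 0.037 and 0.038. In medium-treated against normal RGCs the median was 0.39 without TMM factors, 0.46 with upper-quartile factors, and 0.36 and 0.38 with limma.

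A threshold of 1.5-fold left 9, 1 and 14 genes higher and 0 lower in the order aging against normal, medium against aging and medium against normal, and 2-fold left 0, 0 and 2. With each library left out, 39 to 43 genes were higher and 0 to 1 lower in aging against normal RGCs (median 0.35 to 0.41), 20 to 25 higher and 2 to 3 lower with the medium (median 0.09 to 0.11), and 43 to 46 higher in medium-treated against normal RGCs (median 0.47 to 0.52). Calls lost this way in aging against normal RGCs (edgeR adjusted p) were Cdt1 without aging replicate 3 (0.0517), Gins4 without aging replicate 3 or normal replicate 2 (up to 0.11), Pold2 without aging replicate 1 or 3 or normal replicate 2 or 3 (up to 0.102), Pole2 without aging replicate 1 or 3 or normal replicate 1 or 3 (up to 0.127), and E2f2 without aging replicate 1 or 2 or normal replicate 2 or 3 (up to 0.149). In medium-treated against aging RGCs they were Gmnn (0.0614) and Lig1 (0.0512) without aging replicate 3, E2f2 without aging replicate 2 (0.0588), Chaf1b without aging or medium replicate 1 (up to 0.0945), and Ccne1 without aging replicate 2 or medium replicate 1 or 2 (up to 0.119). Against normal RGCs, Gins2 was lost without medium replicate 2 (0.0951), and Gins4 without medium replicate 1 or 2 or normal replicate 2 (up to 0.0849). No pairing by replicate number was detected. With the replicate number as a block, 43 genes were higher and 1 lower in aging RGCs. The same block gave 22 higher and 2 lower with the medium. In medium-treated against normal RGCs it gave 46 higher and 0 lower. The calls of small differences between medium-treated and aging RGCs depend on the scaling, and the cause was not tested.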
